A study of Arabidopsis thaliana with 4 samples.

Results

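Pentatricopeptide repeat (PPR) proteins are RNA-binding proteins made of tandem helical repeats. They are encoded in the nucleus and most act in chloroplasts or mitochondria, where each recognises particular organelle transcripts and takes part in their editing, splicing, end processing, stability or translation. A subclass ends in the DYW domain, named after its closing residues aspartate, tyrosine and tryptophan, which carries the deaminase activity of C-to-U editing. The genes described here are those whose deposited description is exactly the PPR superfamily wording, 201 of the 33602 genes in the table. They were chosen by that wording, and no measured value enters the rule. The family was however taken up with earlier results from these 4 libraries known, so counts over its members are descriptions and not evidence of a direction.

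The series compared wild-type (WT, accession Col-0) and jmj28-3 seedlings of Arabidopsis thaliana, with 2 libraries of polyadenylated RNA per genotype. JMJ28 encodes a jumonji-domain protein of the histone demethylase family. The labels do not describe the lesion of jmj28-3, and nothing in them tells separate cultures from repeated sampling of 1 culture, so a p-value here covers the spread between libraries, which may be technical alone. All seedlings were 12 days old and grown on MS medium with 1% sucrose at 23 °C under 16 h light and 8 h dark, and whole seedlings were extracted.

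The values were FPKM, fragment numbers scaled to transcript length and to the mapped fragments of the library, with library sums of 983897 to 991510, and read numbers were not given. JMJ28 (AT4G21430) had 3.80 and 5.54 FPKM in the WT libraries against 3.65 and 3.33 in the mutant ones, a difference short of the threshold (limma, adjusted p = 0.327). The 6 leaf and 5 root marker genes were present in all libraries, at summed FPKM of 51631 to 54396 and 1214 to 1354, the root sum being mostly BGLU23. The 6 seed markers summed to at most 0.680 FPKM and the 4 pollen markers to at most 0.0200, with 4 and 3 of them at 0 throughout.

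All 201 genes matched the RefSeq annotation of TAIR10.1 by identifier. They lie on all 5 nuclear chromosomes, with 61 on chromosome 1, 24 on chromosome 2, 43 on chromosome 3, 25 on chromosome 4 and 48 on chromosome 5. Most lack introns: 129 of them (64.2%) have 1 annotated exon, against 5501 of all 27444 protein-coding genes. Annotated coding lengths run from 78 codons, in AT1G77150, to 1440 codons, in AT3G18110, with a median of 614. MRL1, which matures the chloroplast rbcL transcript, has the most exons, 19.

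The coding sequences of 24 members (11.9%) end in codons for aspartate, tyrosine and tryptophan, against 0.215% of all protein-coding genes. The ending is not particular to these members: 29 genes described as TPR-like superfamily (10.5%) and 3 of 59 with other PPR descriptions (5.08%) have it too. The last 30 coding bases of 8 editing factors are shown because they separate those with the exact DYW codons at the end from those with other codons there. Capitals mark the codons for the DYW residues, and the last codon is the stop.
DYW1: ggtaactgctcttgtggaGATTATTGGtag
LPA66: ggctcatgctcgtgtatgGATTATTGGtga
CRR22: ggtgcctgttcgtgcggaGATTACTGGtga
RARE1: ggaaagtgttcttgcaacGATTACTGGtga
MEF29: ggtgtctgttcatgtggaGATTATTGGtag
OTP85: ggaaaatgttcttgtggggatttttggtga
DOT4: ggacattgttcttgcagaggtttctggtga
CRR4: gatagcattgaagtttccagtacattgtag
In TAIR10.1 these stretches lie on the plus strand at chr1:17486358-17486387 for DYW1, chr2:870250-870279 for OTP85 and chr4:10307436-10307465 for DOT4. On the minus strand they lie at chr5:19832969-19832998 for LPA66, chr1:3791454-3791483 for CRR22, chr5:4246954-4246983 for RARE1, chr4:14962617-14962646 for MEF29 and chr2:18694816-18694845 for CRR4. DYW1 and CRR4 are known to act together on the start codon of chloroplast ndhD: CRR4 recognises the site and DYW1 brings the DYW domain. OTP85 and DOT4 close in other codons than the exact DYW ending. The match to exact codons does not tell whether the DYW domain is present.

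The median PPR gene had a mean of 1.5 FPKM over the 4 libraries, where the median of all genes was 2.61. Among tested genes the medians were 1.97 FPKM for the members and 11.2 for all. At least 1 FPKM in every library was reached by 110 of 201 members and by 18357 of all 33602 genes, which is nearly the same share. Of the members, 10 were listed at 0 in all libraries, where 9363 of all genes were, and between 14 and 19 were listed at 0 in a single library. A mean of at least 0.5 FPKM over the 4 libraries was needed for a test, which 158 members passed and 43 did not.

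The 5 most abundant members held 25.7% to 27.0% of the family's summed FPKM. AT3G49140 was the highest, at 58.53 and 56.65 FPKM in the WT libraries against 60.11 and 62.10 in the mutant ones. MRL1 (AT4G34830) followed, at 48.31 and 46.59 FPKM in the WT libraries against 39.54 and 40.96 in the mutant ones. AT1G64430 had 34.92 and 34.53 FPKM in the WT libraries against 33.81 and 30.90 in the mutant ones. Of these 3 genes, the first was higher in both jmj28-3 libraries than in WT and the other two were lower, and none passed the test over all genes (limma, adjusted p = 0.416, 0.0771 and 0.439). DYW1 and AT4G35850 completed the 5, and AT4G35850 overlapped between genotypes, at 26.85 and 25.43 FPKM in the WT libraries against 25.12 and 29 in the mutant ones. Neighbours in this order did not always differ beyond their spread: the jmj28-3 values of AT4G35850 ranged past those of DYW1.

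**Figure D1:**
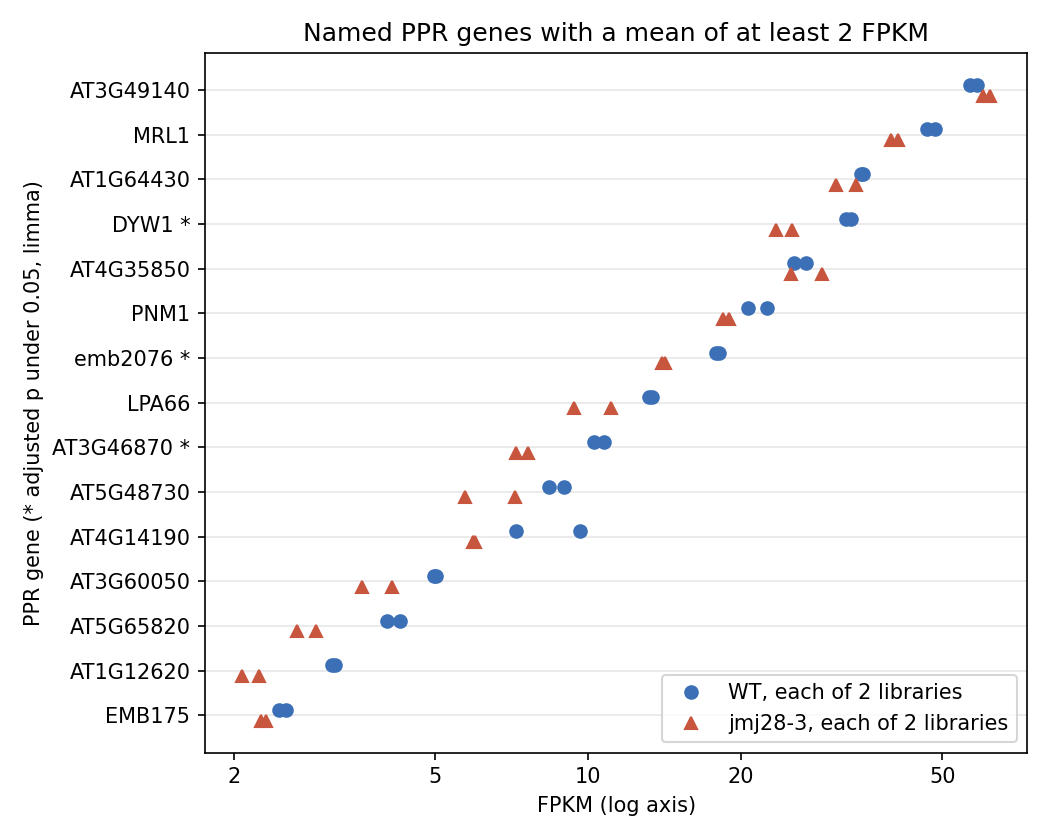
FPKM on a log axis in each of the 4 libraries, for the PPR genes named by rule whose mean is at least 2 FPKM; circles are WT libraries, triangles jmj28-3 libraries, and an asterisk marks an adjusted p under 0.05 in limma. AT3G49140 is the one gene shown with both jmj28-3 libraries above both WT libraries, AT4G35850 overlaps, and every other gene shown has both jmj28-3 libraries on the lower side.

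Against WT, 3 PPR genes were lower in jmj28-3 and none was higher at an adjusted p under 0.05 (limma on log2(FPKM + 1), Benjamini-Hochberg over 20232 tested genes). That is 1.90% of the 158 tested members, where 7.97% of all tested genes were called, 4.18% higher and 3.79% lower. Without adjustment, 15 members had a p under 0.05, 15 lower and 0 higher, or 9.49%, where 24.2% of all tested genes did. The share of PPR genes called was below the background share, but the tested members were lower in level, with medians of 1.97 against 11.2 FPKM. Of all tested genes, 0.728% were called from 0.5 to under 1 FPKM and 11.4% from 10 FPKM upward. The shares are thus not compared at like levels.

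DYW1 (AT1G47580; chromosome 1, 17485576 to 17486463, plus strand, 1 exon) had 32.98 and 32.20 FPKM in the WT libraries against 23.51 and 25.29 in the mutant ones. Both mutant libraries lay below both WT libraries, and the gap between genotypes was several times the gap within either. The fall was 1.34-fold, with means of 32.6 ± 0.552 FPKM in WT and 24.4 ± 1.26 in jmj28-3 (SD, n = 2) and a log2 change of -0.40 (SE 0.0675, limma adjusted p = 0.0275). No other annotated gene overlaps it.

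AT3G46870, annotated to the chloroplast (chromosome 3, 17262943 to 17264555, plus strand, 4 exons), had 10.73 and 10.25 FPKM in the WT libraries against 7.61 and 7.21 in the mutant ones. The genotypes did not overlap. It fell 1.42-fold, with means of 10.5 ± 0.339 FPKM in WT and 7.41 ± 0.283 in jmj28-3 (SD, n = 2) and a log2 change of -0.45 (SE 0.0851, limma adjusted p = 0.0378).

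The third was emb2076 (AT3G29290; chromosome 3, 11238011 to 11240646, plus strand, 3 exons), named for an embryo-defective mutant. It had 18.16 and 17.87 FPKM in the WT libraries against 13.97 and 14.21 in the mutant ones, again without overlap. It fell 1.28-fold, with means of 18.0 ± 0.205 FPKM in WT and 14.1 ± 0.170 in jmj28-3 (SD, n = 2) and a log2 change of -0.33 (SE 0.0689, limma adjusted p = 0.0478). It overlaps the neighbouring gene AT3G29280, and strand use in counting is not stated in the labels. In bulk seedlings, fewer cells that express a gene and less RNA per cell cannot be told apart.

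The 3 calls were fragile while the sizes held. Testing every gene above 0 ended all 3 (limma adjusted p = 0.0501, 0.0762 and 0.0730), as did a fit with no variance trend (limma adjusted p = 0.0722, 0.0580 and 0.0814). With any 1 library left out, log2 changes were -0.45 to -0.35 for DYW1, -0.48 to -0.42 for AT3G46870 and -0.35 to -0.32 for emb2076. Such fits leave 1 residual degree of freedom, and most calls over all genes were lost in them. Lost calls there are thus not particular to these genes. Over all alternatives their log2 changes ran from -0.45 to -0.35, from -0.50 to -0.42 and from -0.35 to -0.30.

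The next members by p did not pass. MRL1, with values given above, had a log2 change of -0.23 (SE 0.0583, adjusted p = 0.0771). AT5G65820 had 4.01 and 4.25 FPKM in the WT libraries against 2.91 and 2.67 in the mutant ones (limma adjusted p = 0.0816). LPA66 (AT5G48910), which edits psbF, had 13.38 and 13.21 FPKM in the WT libraries against 9.37 and 11.12 in the mutant ones (limma adjusted p = 0.104). In all of these genes the genotypes were apart, although by little more than the spread between the jmj28-3 libraries in LPA66. AT1G12620, AT5G48730, AT4G14190 and AT3G60050 closed the 10 members with the smallest p, with log2 changes of -0.39, -0.38, -0.42 and -0.31 and limma adjusted p from 0.114 to 0.164. All 10 were lower in both jmj28-3 libraries. Single libraries set the size of a pair of them: AT4G14190 went from -0.42 to -0.24 without WT replicate 1, and AT5G48730 from -0.38 to -0.24 without jmj28-3 replicate 2. AT1G12620 shares 90.3% of aligned bases with AT1G12300, so its values are uncertain. At the minimum mean for a test, AT5G43820 (1.00 and 0.65 FPKM in WT, 0 and 0.36 in jmj28-3) and AT5G47460 (0.56 and 0.49, 0.59 and 0.38) lay just inside. AT1G09220 (0.49 and 0.45, 0.33 and 0.70) and AT1G09680 (0.53 and 0.49, 0.60 and 0.36) lay just outside.

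**Figure D2:**
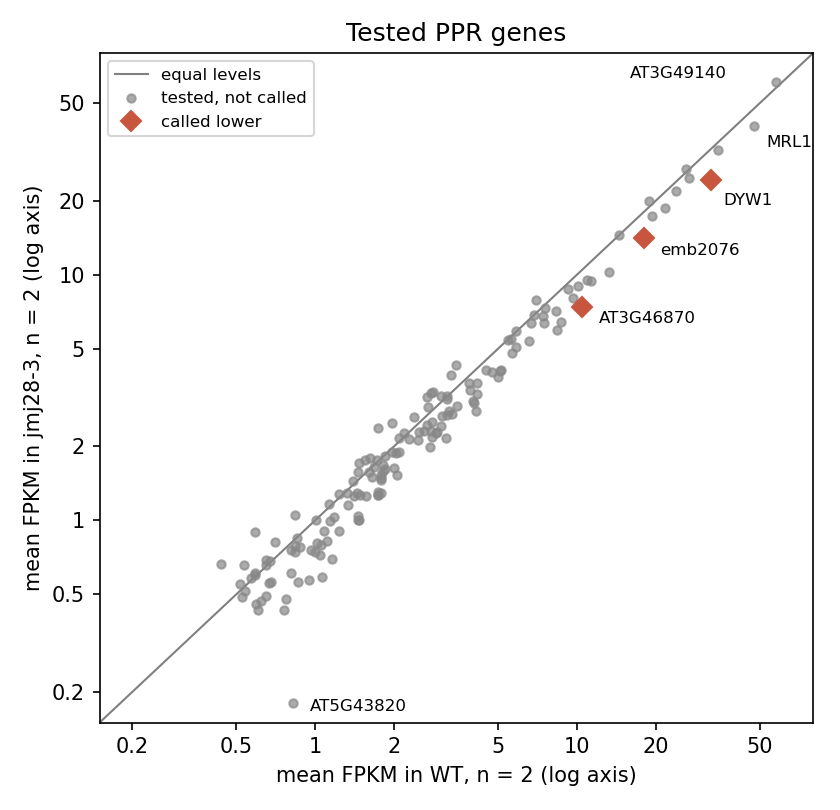
Mean FPKM in jmj28-3 against mean FPKM in WT (n = 2 each, log axes) for the 158 tested PPR genes, with a line of equal levels and diamonds for the 3 genes called lower. Most points sit slightly under the line at every level, and AT5G43820 lies farthest from it, at values near the minimum for a test.

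Small differences in 1 direction were common across the family. Of 158 tested members, 120 (75.9%) had a log2 change below 0, where 56.6% of all tested genes did. Both jmj28-3 libraries lay below both WT libraries for 72 members (45.6%, where 32.7% of all tested genes did) and above both for 11 (6.96%, where 22.4% did), and 75 overlapped. The median log2 change was -0.11, with quartiles of -0.22 and 0.00, and over all tested genes it was -0.03. The changes were small against their error: the median SE of a member was 0.145. Summed FPKM of the family was 783.2 and 748.3 in the WT libraries against 684.5 and 698.4 in the mutant ones, or 0.0793% and 0.0761% of the library sum against 0.0690% and 0.0707%. Without the 5 most abundant members the sums were 581.6 and 552.9 in the WT libraries against 502.4 and 510.2 in the mutant ones. The lower sum was thus seen in both mutant libraries, with and without the abundant genes. All 5 root markers were also lower in both jmj28-3 libraries: PRP3 had 72.21 and 83.04 FPKM in the WT libraries against 49.94 and 47.54 in the mutant ones, and TIP2;3 had 35.63 and 32.58 against 27.57 and 20.22. EXPA7 had 18.08 and 22.98 against 15.33 and 14.06, COBL9 had 6.77 and 6.52 against 5.11 and 3.95, and BGLU23 had 1221.49 and 1183.22 against 1178.39 and 1128.36. The summed leaf markers overlapped between genotypes, but single leaf markers went both ways. RBCS1B (5458.56 and 4772.14 FPKM in WT, 4317.64 and 4194.33 in jmj28-3) and CA1 were lower in both jmj28-3 libraries. LHCB1.2 (5760.43 and 6263.82, 7502.73 and 6952.26), LHCB1.1 and PSAD-1 were higher in both, and RBCS1A overlapped. Among all tested genes, 32.7% were lower in both jmj28-3 libraries and 22.4% higher in both. The part of root tissue in the PPR values was not tested. With 2 libraries per genotype, the smallest two-sided p of an exact permutation test is 0.333.

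With quantile normalization the median of the members was -0.07 and that of all tested genes -0.02, and with a pseudocount of 0.1 they were -0.17 and -0.03. With median-of-ratios scaling they were -0.09 and 0.00 and with TPM -0.12 and -0.04. Both scalings divide a library by a single factor, which moves members and all genes nearly alike. The gap between them could therefore hardly change, and its size there adds nothing. The share of members below 0 stayed between 68.4% and 79% over all alternatives, while the share of all tested genes below 0 ran from 49.8% to 57.9%.

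**Figure D3:**
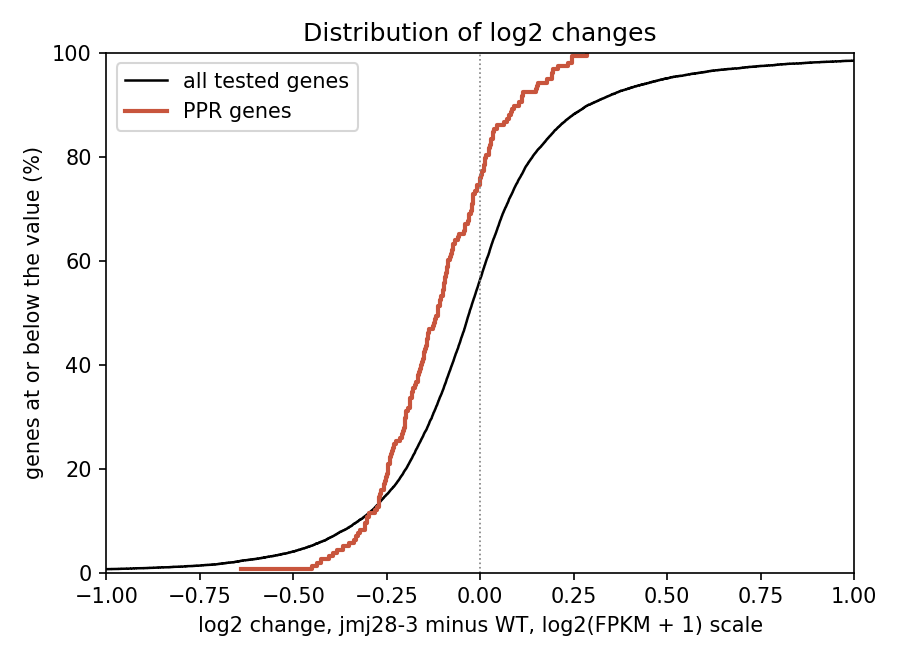
Cumulative share of genes (%) against the log2 change, jmj28-3 minus WT, on the log2(FPKM + 1) scale, for the 158 tested PPR genes and for all 20232 tested genes; the axis is limited to -1 to 1. The PPR curve crosses 0 at 75.9% and the curve of all tested genes at 56.6%, and the PPR curve ends at 0.28.

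The called members were among the more abundant ones. Of the 15 members with a mean of at least 10 FPKM, 2 were called lower (13.3%), where 5.34% of all tested genes at that level were and 11.4% were called in either direction. From 5 to under 10 FPKM, 1 of 19 was called lower (5.26%, where 2.57% of all tested genes were and 5.65% in either direction). None of the 124 tested members under 5 FPKM was called by limma, although 5 of them had an unadjusted p under 0.05. Of all tested genes from 0.5 to 1, 1 to 2 and 2 to 5 FPKM, 0.455%, 0.775% and 2.49% were called lower and 0.728%, 1.61% and 4.42% in either direction. Log2 changes below 0 were the more frequent sign in all 5 classes. From the lowest class to the highest, 72.5%, 80%, 70.5%, 84.2% and 80% of members were below 0, where 57.6%, 62.9%, 59.9%, 56.5% and 54.6% of all tested genes were. The median SE of members went down from 0.173 in the lowest class to 0.0739 in the highest.

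Among members with a known role, the called gene was a plastid editing factor. Of 8 such members, 7 were tested: DYW1 was lower (14.3%, where 3.79% of all tested genes were) and the other 6 did not pass. The recognition partner of DYW1, CRR4 (AT2G45350), was far less abundant, with 1.07 and 0.65 FPKM in the WT libraries against 0.47 and 0.65 in the mutant ones, and its genotypes overlapped (limma adjusted p = 0.498). Their shared target transcript ndhD was near the minimum for a test in this polyadenylated RNA, at 0.40 and 0.20 FPKM in the WT libraries against 0.75 and 0.71 in the mutant ones (limma adjusted p = 0.235). FPKM carry no bases, so editing itself was not measured.

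No other tested plastid editing factor passed. CRR22 (AT1G11290), which edits several chloroplast transcripts, had 2.23 and 1.69 FPKM in the WT libraries against 2.17 and 2.79 in the mutant ones (log2 change 0.23, limma adjusted p = 0.452). SEL1 (AT4G18520), needed for accD editing, had 3.81 and 3.11 FPKM in the WT libraries against 4.18 and 4.37 in the mutant ones (log2 change 0.25, limma adjusted p = 0.303). DOT4, which edits rpoC1, and OTP85, which edits ndhD, had log2 changes of -0.25 and -0.10 and overlapped between genotypes. RARE1 (AT5G13270), an accD editing factor, was too low for a test, with 0.53 and 0.32 FPKM in the WT libraries against 0.09 and 0 in the mutant ones. Of the plastid editing factors under other descriptions 8 were tested and limma called 0, where 7.97% of all tested genes were called. An unadjusted p under 0.05 was found for 2 of them, where 24.2% of all tested genes had one. Log2 changes were below 0 for 6 of them, where 56.6% of all tested genes were. Among these 6 were CRR21 at -0.45 (limma adjusted p = 0.0722) and CRR28 at -0.40 (limma adjusted p = 0.138). CLB19 and OTP80 were higher in both jmj28-3 libraries, with log2 changes of 0.11 and 0.06.

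Mitochondrial editing factors had a median level of 0.600 FPKM, where the plastid ones had 2.34. Of 9 members, 7 were tested and limma called none, where 7.97% of all tested genes were called. An unadjusted p under 0.05 was found for 0 of these members, where 24.2% of all tested genes had one. Their log2 changes ran from -0.14 to 0.02. SLO2 had 0.92 and 1.25 FPKM in the WT libraries against 0.94 and 0.87 in the mutant ones (limma adjusted p = 0.698). LOI1, also known as MEF11, had 1.97 and 1.67 FPKM in the WT libraries against 1.57 and 1.60 in the mutant ones (limma adjusted p = 0.646). REME1 and COD1 stayed under the minimum for a test. The 4 members for mitochondrial splicing or processing were not called by limma either, with 0 at an unadjusted p under 0.05. RFL9, of the restorer-of-fertility-like group, had 1.72 and 1.86 FPKM in the WT libraries against 1.37 and 1.59 in the mutant ones (log2 change -0.17, limma adjusted p = 0.516) and shares 90.9% of aligned bases with AT1G62930. RPF7 (log2 change 0.10, limma adjusted p = 0.733), OTP43, needed for splicing of nad1, and BIR6, needed for splicing of nad7, moved by no more than their error.

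Besides MRL1, the plastid list held EMB175, which is needed for embryo development, at 2.46 and 2.54 FPKM in the WT libraries against 2.26 and 2.32 in the mutant ones (limma adjusted p = 0.708). Transcripts of rbcL, the RNA that MRL1 matures, had 7.77 and 7.02 FPKM in the WT libraries against 18.25 and 9.92 in the mutant ones (limma adjusted p = 0.141). Chloroplast-encoded transcripts as a whole made up 0.0687% and 0.0711% of all FPKM in the WT libraries against 0.213% and 0.146% in the mutant ones, and mitochondrial ones 0.00410% and 0.00416% against 0.00704% and 0.00964%. The libraries held polyadenylated RNA, so these values, rbcL included, do not measure organelle RNA as a whole. The part of organelle transcripts in the PPR values was not tested. PNM1 (AT5G60960), found in both nucleus and mitochondria, had 20.72 and 22.52 FPKM in the WT libraries against 18.44 and 18.95 in the mutant ones (log2 change -0.20, limma adjusted p = 0.180). SOAR1, a regulator of abscisic acid responses, overlapped between genotypes (log2 change -0.09, limma adjusted p = 0.752). Of 10 members named for embryo-defective mutants, 9 were tested, emb2076 was lower (11.1%, where 3.79% of all tested genes were) and 8 were not called. All 9 had log2 changes below 0, from -0.33 to -0.03, where 56.6% of all tested genes were below 0. Their median level was 8.91 FPKM.

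**Figure D4:**
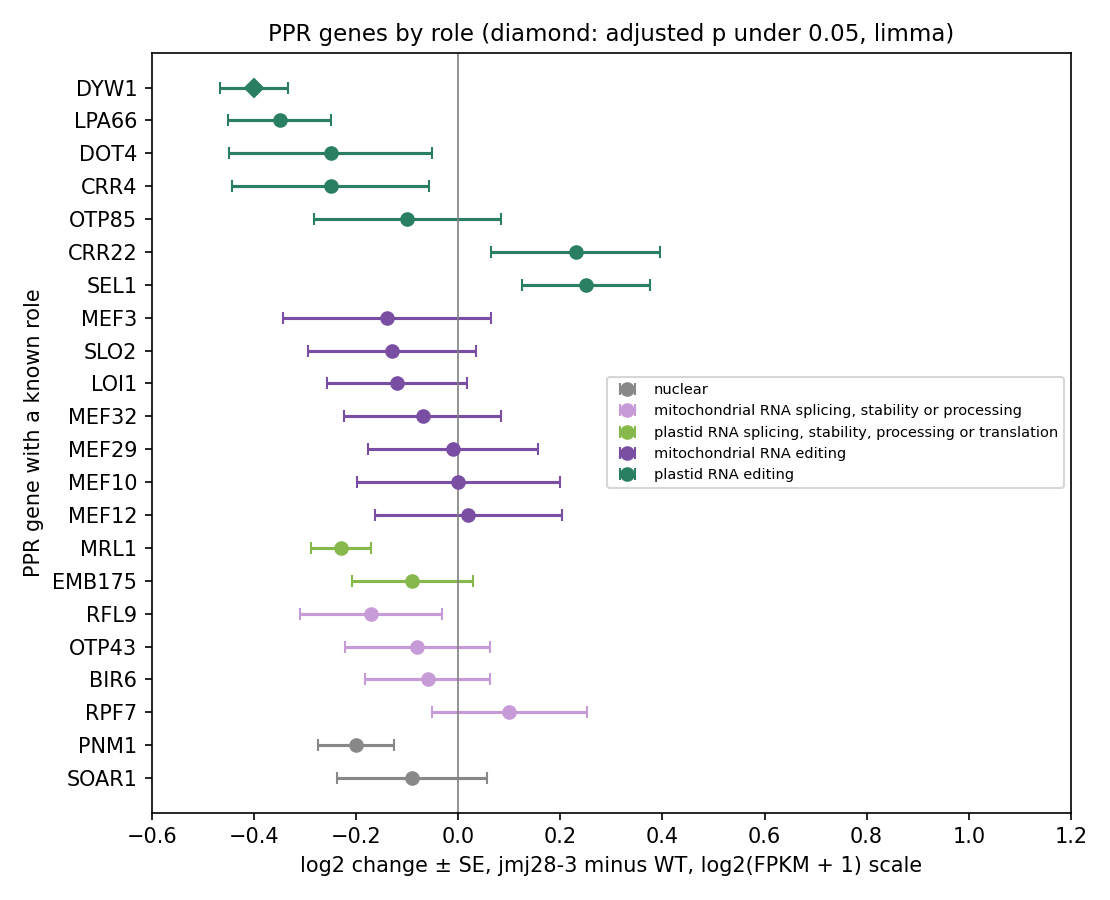
Log2 change with its SE, jmj28-3 minus WT on the log2(FPKM + 1) scale, for the tested PPR genes with a known role, coloured by role list; the diamond marks an adjusted p under 0.05 in limma. DYW1 at -0.40 is the called gene, SEL1 at 0.25 lies highest, and the mitochondrial editing factors lie between -0.14 and 0.02.

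The annotation names a chloroplast location for 18 members, a mitochondrial one for 21 and both for 1, and no organelle for 161. Those 161 include the plastid editing factors DYW1, LPA66 and CRR22, so the location groups are incomplete. Of the 161, 126 were tested, with a median log2 change of -0.12. Of the chloroplast group, 17 were tested, with a median log2 change of -0.21. Of these, 1 was called lower (5.88%, where 3.79% of all tested genes were), and 6 had an unadjusted p under 0.05, all lower (35.3%, where 13.7% of all tested genes did). Both jmj28-3 libraries lay below WT in 9 (52.9%, where 32.7% of all tested genes did) and above in 0 (where 22.4% did). Of the mitochondrial group, 14 were tested, with a median of -0.02, limma called 0, 0 had an unadjusted p under 0.05, and 3 lay below WT (21.4%) and 3 above. The groups also differed in level, with a median of 5.65 FPKM for the chloroplast members and 1.06 for the mitochondrial ones. The difference between the groups was not tested. Members with the DYW codons had a median log2 change of -0.09 over 16 tested genes, and the others -0.12 over 142. Genes with 1 exon and with several were alike in median change, at -0.10 over 101 and -0.12 over 57.

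Promoters were searched over the 250 bases before the annotated start, on both strands, for the site II element (TGGGCC or TGGGCT) and the telo box (AAACCCTA), elements known from genes for organelle and ribosomal proteins, and for TATAAA. Site II letters were found in 57 members (28.4%) and in 19.2% of all protein-coding genes. The telo box was found in 12 (5.97%) and in 4.49%, and TATAAA in 76 (37.8%) and in 47.3%. The search windows of MRL1 (chr4:16606136-16606385, minus strand) and PNM1 (chr5:24530033-24530282, minus strand) are shown as 2 of the abundant members that hold site II, with site II and the telo box in capitals.
MRL1: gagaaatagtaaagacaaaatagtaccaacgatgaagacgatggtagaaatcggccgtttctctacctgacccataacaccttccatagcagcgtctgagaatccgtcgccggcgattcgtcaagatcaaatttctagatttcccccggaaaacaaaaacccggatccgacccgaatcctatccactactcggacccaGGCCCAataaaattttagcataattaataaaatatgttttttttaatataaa
PNM1: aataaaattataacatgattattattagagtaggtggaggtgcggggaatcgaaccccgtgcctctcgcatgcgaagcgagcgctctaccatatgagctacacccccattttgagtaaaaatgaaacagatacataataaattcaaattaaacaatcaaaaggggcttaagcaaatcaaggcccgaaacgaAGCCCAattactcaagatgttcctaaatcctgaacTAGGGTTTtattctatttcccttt
Site II begins 52 bases before the start in MRL1 and 59 in PNM1, and the telo box of PNM1 begins 24 bases before it, all on the strand opposite to the gene. Tested members with site II had a median log2 change of -0.11 over 50 genes and those without it -0.12 over 108. The 3 called members hold neither element in this window.

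Few members are near-identical to another gene, and these are uncertain. A coding sequence at least 90% identical over at least 50% of its length was found for 13 members. AT5G28370 was listed at 0 in all libraries, while AT5G28460, identical to it over the aligned bases, had 6.01 and 5.23 FPKM in the WT libraries against 5.38 and 5.56 in the mutant ones. AT3G62540 and AT5G14820, 99.7% identical, both overlapped between genotypes. Another annotated gene overlaps 71 members, of which 59 were tested, with a median log2 change of -0.14.

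Genes with other PPR descriptions and partners of PPR proteins were set beside the family. Of 59 genes with other PPR descriptions 43 were tested, 2 were lower (4.65%, where 3.79% of all tested genes were) and none was higher, and their median log2 change was -0.10. Of the 276 genes described as TPR-like superfamily, 228 were tested, 3 were higher and 5 lower (3.51% called, where 7.97% of all tested genes were), with a median of -0.06 and 64.9% below 0. The 2 lower genes with other PPR descriptions were AT2G30100, at 13.62 and 14.58 FPKM in the WT libraries against 8.21 and 6.89 in the mutant ones, and AT3G46610, at 11.84 and 11.23 against 8.42 and 7.83 (limma adjusted p = 0.0133 and 0.0370). Among 43 tested PPR genes of known role outside the family's wording, 2 were lower (4.65%) and none was higher. Of them, 36 had log2 changes below 0 (83.7%, where 56.6% of all tested genes did). Both jmj28-3 libraries lay below WT in 25 (58.1%, where 32.7% did) and above in 7 (16.3%, where 22.4% did). Those above include DG1 (log2 change 0.22, limma adjusted p = 0.170) and OTP87 (0.31, limma adjusted p = 0.295). HCF152, which processes chloroplast psbB-petB transcripts, was 1.52-fold lower (limma adjusted p = 0.0480). HCF152 is also among the 5 lower genes described as TPR-like superfamily, so these sets overlap. PRORP1, the organelle RNase P protein, had 72.17 and 69.52 FPKM in the WT libraries against 57.45 and 59.49 in the mutant ones (limma adjusted p = 0.0446).

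None of the 8 editing partners tested was called by limma, where 7.97% of all tested genes were. An unadjusted p under 0.05 was found for 0 of them, where 24.2% of all tested genes had one. The partners are MORF1, MORF3, MORF4, MORF6, MORF9, RIP1, ORRM1 and PPO1, which take part in organelle RNA editing, and their median log2 change was -0.01. Of 9 genes for organelle transcription, SIGE, a plastid sigma factor, fell from 75.88 and 82.56 FPKM in the WT libraries to 48.17 and 42.04 in the mutant ones (log2 change -0.80, limma adjusted p = 0.00803). The other 8 were not called, so 11.1% were called lower, where 3.79% of all tested genes were. In all 9 both jmj28-3 libraries lay below WT, where 32.7% of all tested genes did. Of 19 tested genes for organelle splicing and RNA binding, 1 was lower (5.26%, where 3.79% of all tested genes were) and 18 were not called. The lower gene was CFM3B, a splicing factor with CRM domains (log2 change -0.41, limma adjusted p = 0.0419). Of 30 tested mTERF genes, AT5G55580 was lower (3.33%, where 3.79% of all tested genes were) and 29 were not called. The log2 change of AT5G55580 was -0.52 (limma adjusted p = 0.0464). None of the 3 organelle RNase genes was called by limma, with 0 at an unadjusted p under 0.05.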

How the data were processed

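Whole-seedling RNA was sequenced in 4 libraries, and the authors deposited 1 FPKM column for each. The submitters' processing notes name TopHat, RSEM, edgeR and the TAIR10 build, without versions or order. FPKM hold no read counts, so depth is unknown and no counting interval is given. The test was limma (3.58.1, run in R 4.3.3) applied to log2(FPKM + 1), for genes with a mean FPKM of at least 0.5, with genotype as the only term and a variance trend, two-sided, and Benjamini-Hochberg adjustment over all tested genes at 0.05. The step was run on simulated data whose planted changes were larger than those of the called PPR genes, so that run does not cover changes of their size. Log2 changes understate those of low genes. Folds are ratios of mean FPKM.

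Members and lists were chosen with earlier results of these data known. Named genes were called members, the 5 highest, the 10 with the smallest p, up to 4 called or otherwise the 2 with the smallest p per role list, and 2 on each side of the minimum mean. Other genes were named after their values were seen. Role lists held names found in RefSeq. Names shared by unrelated genes were left out by hand, and some partner genes were added by identifier. Positions, exons and sequences are from RefSeq TAIR10.1, matched by gene identifier. Coding sequences were compared with blastn 2.17.0. The fit was repeated with a pseudocount of 0.1 or 0.5, without the filter or with a minimum mean of 2, after median-of-ratios, quantile or TPM scaling, with a replicate block, without the variance trend, and without each library in turn.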

Additional observations from a re-analysis of the deposited data

How the results depend on the processing

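PPR genes called lower in limma numbered 3 in the reported fit and 0 with no filter, with no variance trend, with the replicate block and in each fit without 1 library, and PPR genes called higher numbered 0 throughout. Calls over all genes were 846 higher and 767 lower, against 526 and 351 with no filter, 469 and 287 with no variance trend, and 70 to 398 and 21 to 164 without 1 library, where 1 residual degree of freedom is left. The labels do not say that replicate numbers pair libraries, and same-numbered deviations correlated at -0.133. With the replicate block the calls were 534 and 328, and with crossed numbers, chosen after seeing the data, 1158 and 1129. The median log2 change of tested PPR genes was -0.11, moving to -0.17 with a pseudocount of 0.1 and to -0.07 with quantile normalization, and no alternative reversed it. Of 296 single-gene values under alternatives, 273 kept their side of the threshold and 23 lost a call, all on DYW1, AT3G46870 or emb2076. DYW1 and AT3G46870 were each called in 7 of 14 alternatives, and emb2076 in 5 of 14. The other genes counted here were not called in the reported fit or in any alternative. The emb2076 call was also lost with median-of-ratios scaling and quantile normalization (limma adjusted p = 0.0611 and 0.0516). The causes were not tested. Read depth is unknown, and the larger SE at low FPKM limits what can be called under 5 FPKM, where most PPR genes lie.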
